A study of Bos taurus with 40 samples.

Results

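The aryl hydrocarbon receptor and the cytochrome P450 enzymes of family 1 were followed through the bovine endometrium, the lining of the uterus. The members were 7 gene names: AHR, ARNT, AHRR, TIPARP, CYP1A1, CYP1A2 and CYP1B1. Of the 32671 gene rows of the count table, 6 carry one of these names. No row is named AHRR, which encodes the repressor of the receptor, and it was not analysed here. Of the 6 rows, 5 passed the filter on low counts, and CYP1A2 did not. The names were drawn up with earlier results of these data known, so the adjusted p-values of these genes are given as a description and support nothing beyond it.

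The tissue came from synchronized heifers, sampled on 4 days: 5, 7, 13 and 16. The uterine horn next to the ovary with the corpus luteum, the progesterone-secreting gland left by ovulation, is called ipsilateral, and the opposite horn contralateral. With 20 tagged heifers and a sample from each horn there were 40 RNA-seq libraries, 5 for each of 8 combinations of horn and day. The sample labels speak of pregnancy, whereas the design text counts from estrus, and breed, age and the presence of embryos are not given in the sources used here. The labels name no treatment beyond the synchronization.

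AHR is a transcription factor that waits in the cytoplasm in a complex with HSP90 and binds flat aromatic molecules, among them dioxins, indoles and products of tryptophan breakdown such as kynurenine. With a ligand bound it enters the nucleus, pairs with ARNT and switches on genes that include CYP1A1, CYP1A2, CYP1B1, TIPARP and AHRR. The CYP1 enzymes oxidize aromatic compounds and hydroxylate estrogens, while AHRR and TIPARP act back on the receptor as brakes. Sequences of these genes were not used here.

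Library totals ranged from 27.03 to 64.36 M assigned reads. The deepest library, of the ipsilateral horn on day 5 (tag 3-175), also holds the highest AHR level of the 40, 68.7 CPM. Markers of epithelium, stroma, smooth muscle and endothelium were all present, with no marker gene of these lists at 0 in every library. The summed level of 8 smooth muscle markers ran from 731 to 5722 CPM in the ipsilateral libraries of day 5, with a median of 912 CPM. From day 5 to day 7 all 8 fell ipsilaterally and 2 contralaterally, where 30.7% and 19.8% of all genes passed. The part of smooth muscle in the day 5 levels was not tested. The tissue is a homogenate, so fewer cells of a type and less RNA per cell cannot be told apart. The 2 libraries that share a heifer tag were the closest match, in deviations from the group means over all genes, in 5 of 20 tags. Within each day every ipsilateral library had a different contralateral library as its best match, at r from 0.138 to 0.734, so the tags of a horn may not be those of the heifers. The comparisons used no pairing. Levels are CPM, read counts scaled to the library's size, and they are not compared between genes because they are not corrected for gene length. Differences are log2 values from edgeR's quasi-likelihood test with standard errors (SE), and p-values were adjusted by Benjamini-Hochberg over the 20356 genes tested, with 0.05 as the threshold.

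AHR, the receptor itself, was expressed in all 40 libraries and was higher in the ipsilateral horn. Averaged over the days it exceeded the contralateral horn by 0.42 ± 0.06 (log2 difference ± SE, adjusted p = 1.4e-06 by edgeR). On day 5 the ipsilateral libraries held 37.3, 42.3, 50.5, 56.2 and 68.7 CPM and the contralateral ones 26.6, 29.4, 33.7, 36.6 and 42.8 CPM. The groups overlapped on that day, with 3 ipsilateral libraries above the highest contralateral one. On day 7 the levels were 39.1, 39.7, 42.3, 43.6 and 44.97 CPM against 27.8, 29.3, 30.9, 31.6 and 35.7 CPM. Every ipsilateral library was then above every contralateral one. Day 13 gave 41.1, 42.7, 47.7, 54.0 and 56.6 CPM against 33.3, 36.96, 39.2, 40.3 and 45.7 CPM, with overlap. Day 16 gave 43.9, 44.9, 46.6, 48.4 and 51.6 CPM against 33.4, 33.6, 38.1, 38.6 and 42.6 CPM, again without overlap.

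**Figure D1:**
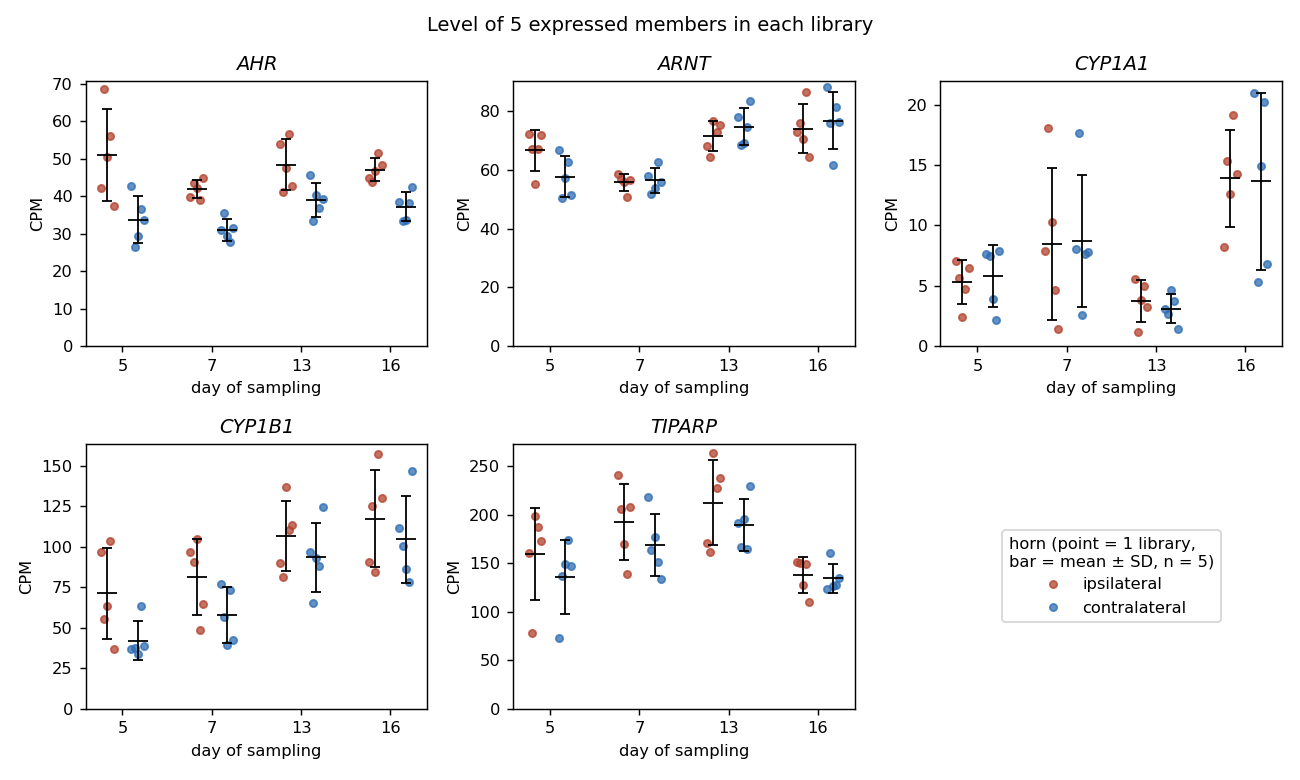
CPM of AHR, ARNT, CYP1A1, CYP1B1 and TIPARP in each library by day of sampling; a point is 1 library (red ipsilateral, blue contralateral) and the bars are the mean ± SD of 5 libraries. AHR points of the ipsilateral horn lie above all contralateral ones on days 7 and 16, and CYP1A1 is lowest on day 13 and highest on day 16 in both horns.

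The horn difference in AHR was 0.59 ± 0.12 on day 5 (adjusted p = 0.000651 by edgeR) and 0.43 ± 0.13 on day 7 (adjusted p = 0.0177 by edgeR). It was 0.31 ± 0.12 on day 13 (adjusted p = 0.159 by edgeR) and 0.34 ± 0.12 on day 16 (adjusted p = 0.126 by edgeR). Thus the mean was higher on the ipsilateral side on each of the 4 days, and the test was passed on 2 of them. The difference did not change detectably with day (adjusted p = 1 for the interaction of horn and day by edgeR). Of the 5 members tested, 2 passed in the average over days and 2 on day 5, AHR and CYP1B1 both times, where 38.2% and 22.7% of all genes passed. On day 7 only AHR passed (11.7% of all genes), and none did on day 13 (5.73%) or day 16 (4.53%). Horn groups without overlap, as for AHR, were found in 9.89% of all genes on day 7 and 6.31% on day 16, against 13.3% on day 5 and 6.73% on day 13. In the test for a change with day no gene passed at all, a share of 0%. An unadjusted p under 0.05 was found for 572 genes in edgeR, 708 in DESeq2 and 504 in limma-voom, and none passed after adjustment. Each count is below a share of 0.05 of the 20356 genes tested, the share that no difference at all would give. A change with day was not excluded by this test.

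Other features of the libraries moved with the horn. The summed level of 10 epithelial marker genes was 837 ± 139 CPM (SD, n = 5) on the ipsilateral and 1284 ± 181 CPM on the contralateral side on day 5, and 7 of these genes were lower ipsilaterally in the average over days. Of 8 stromal markers, 5 were lower as well. Reads on microRNA and tRNA genes, which an mRNA library should hold few of, made up 0.00989% to 0.0122% of ipsilateral and 0.0082% to 0.00941% of contralateral libraries on day 5, and their share was higher ipsilaterally on every day in the mean. With this share as a covariate the averaged AHR difference was 0.35 ± 0.11 (adjusted p = 0.0441 by edgeR), and the day 7 difference no longer passed (adjusted p = 0.366 by edgeR). The day 7 call also ended without the contralateral library of tag 5-117 (adjusted p = 0.0657 by edgeR). The part of the epithelial and stromal markers in the AHR difference was not tested. Across the 40 libraries AHR and the epithelial sum had r = -0.31 on the log2 scale, and r = -0.06 after the group means were removed. With the endothelial, leukocyte and erythroid sums AHR had r = 0.26, 0.03 and 0.02 over the 40 libraries. After removal of the group means these were 0.42, 0.40 and -0.44. The part of these cells in the AHR level was not tested.

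Over the days AHR passed the test in 1 of 6 steps between successive days. It was 50.99 ± 12.27 CPM (SD, n = 5) on day 5 and 41.95 ± 2.51 CPM on day 7 ipsilaterally, a log2 difference of -0.28 ± 0.12 (adjusted p = 0.0827 by edgeR). In the contralateral horn it rose from 31.04 ± 2.97 CPM on day 7 to 39.10 ± 4.56 CPM on day 13, by 0.33 ± 0.12 (adjusted p = 0.0379 by edgeR). Of the 5 contralateral libraries of day 13, 4 were above the highest of day 7. That call was lost when any 1 of 6 libraries was left out, with adjusted p up to 0.123 in edgeR. It was also lost with the microRNA and tRNA share as a covariate (adjusted p = 0.195 by edgeR) and in limma-voom (adjusted p = 0.0509). Ordered by group mean, the 4 ipsilateral groups held the 4 highest AHR levels and the 4 contralateral groups the 4 lowest. The lowest of the ipsilateral means, on day 7, and the highest of the contralateral ones, on day 13, came from groups whose libraries overlapped.

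ARNT, the partner that AHR needs to bind DNA, showed a step between days 7 and 13 in both horns and no difference between the horns on any day that passed the test. On day 7 the ipsilateral libraries held 50.8, 55.9, 56.6, 57.1 and 58.6 CPM, and on day 13 they held 64.6, 68.3, 73.1, 75.2 and 76.8 CPM. The contralateral libraries held 52.0, 53.9, 56.0, 57.9 and 62.9 CPM on day 7 and 68.5, 69.2, 74.7, 78.2 and 83.7 CPM on day 13. Every library of day 13 was above every library of day 7 in the same horn, as groups without overlap were in 20.8% of all genes ipsilaterally and 20.2% contralaterally. The rise was 0.36 ± 0.09 ipsilaterally (adjusted p = 0.0023 by edgeR) and 0.41 ± 0.09 contralaterally (adjusted p = 0.000614 by edgeR), and ARNT passed in both horns whichever library was left out.

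ARNT then stayed near that level, with 74.11 ± 8.29 CPM (SD, n = 5) ipsilaterally and 76.86 ± 9.83 CPM contralaterally on day 16. Between days 5 and 7 it fell ipsilaterally from 66.73 ± 6.94 to 55.80 ± 2.96 CPM, by 0.26 ± 0.09 (adjusted p = 0.0281 by edgeR). The contralateral value of that step was -0.03 ± 0.09 (adjusted p = 0.843 by edgeR). The ipsilateral fall was lost without 4 of the 10 libraries in turn, with adjusted p up to 0.0745 in edgeR. It was lost too with library depth as a covariate (adjusted p = 0.0514 by edgeR). The horn difference averaged over days was 0.02, with a 95% interval of -0.07 to 0.11. On day 5 it was 0.21 (adjusted p = 0.0961 by edgeR), and it passed when the ipsilateral library of tag 4-184 or the contralateral library of tag 1-315 was left out, with an adjusted p as low as 0.0305 in edgeR.

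**Figure D2:**
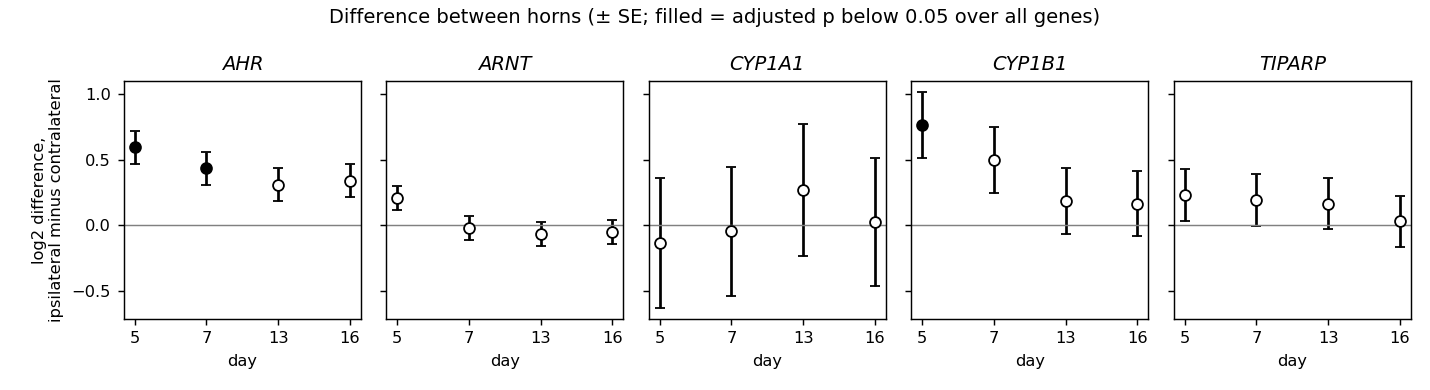
Log2 difference between horns (ipsilateral minus contralateral) with SE on each day for 5 genes; filled points passed an adjusted p below 0.05 over all genes. AHR is above 0 on all 4 days and filled on days 5 and 7, CYP1B1 is filled on day 5, and ARNT, CYP1A1 and TIPARP have no filled point.

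CYP1A1, whose RNA is a usual readout of AHR activity, had the widest range of the members. Its mean was lowest on day 13 and highest on day 16 in both horns, and no difference between the horns passed the test. Over the 40 libraries its level ran from 1.13 to 20.96 CPM, from 35 to 707 reads. On day 13 the ipsilateral libraries held 1.13, 3.26, 3.81, 4.95 and 5.59 CPM, and on day 16 they held 8.18, 12.6, 14.3, 15.4 and 19.2 CPM. The contralateral libraries held 1.40, 2.67, 3.09, 3.72 and 4.66 CPM on day 13 and 5.33, 6.84, 14.96, 20.2 and 20.96 CPM on day 16. Every day 16 library was above every day 13 library of its horn.

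The group means differed 3.71-fold ipsilaterally and 4.40-fold contralaterally between those days. The fitted rise passed in the contralateral horn, at 2.14 ± 0.51 (adjusted p = 0.0244 by edgeR), and missed the threshold in the ipsilateral horn, at 1.89 ± 0.51 (adjusted p = 0.0589 by edgeR). DESeq2 passed the ipsilateral rise (adjusted p = 0.00946), and limma-voom did not pass the contralateral one (adjusted p = 0.0665). Leaving out any 1 of 5 contralateral libraries ended the contralateral call, with adjusted p up to 0.0806 in edgeR. Few genes moved in this interval, with 1.02% of all genes called ipsilaterally, none of them a member, and 1.33% contralaterally, among them 1 of the 5 members. Groups without overlap were found in 2.88% of all genes ipsilaterally and 3.99% contralaterally.

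Before that, CYP1A1 fell between days 7 and 13 in the contralateral horn. The ipsilateral libraries of day 7 held 1.42, 4.67, 7.92, 10.3 and 18.1 CPM and the contralateral ones 2.62, 7.64, 7.79, 8.02 and 17.7 CPM. The spread on that day was wide, and in both horns the library of tag 2-371 was the highest. The difference from day 7 to day 13 was -1.49 ± 0.50 contralaterally (adjusted p = 0.0206 by edgeR) and -1.18 ipsilaterally (adjusted p = 0.0725 by edgeR). The contralateral call ended without tag 2-371, or without tag 5-140 or 8-275 of day 13, with adjusted p up to 0.111 in edgeR, and limma-voom did not make it (adjusted p = 0.0871). The ipsilateral value passed without the day 7 library of tag 6-338 (adjusted p = 0.0207 by edgeR) and in DESeq2 (adjusted p = 0.0457). In this interval 32.9% of all genes passed contralaterally and 29.8% ipsilaterally. Of the 5 members, 4 passed contralaterally (AHR, ARNT and CYP1B1 higher, CYP1A1 lower) and 1 ipsilaterally, ARNT. From day 5 to day 7, 1 member passed ipsilaterally, ARNT (30.7% of all genes), and none contralaterally (19.8%).

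On day 5 the 5 ipsilateral libraries held 2.45 to 7.05 CPM of CYP1A1 (median 5.68) and the contralateral ones 2.20 to 7.87 CPM (median 7.47). The order of the day means was the same in both horns: day 16, then day 7, day 5 and day 13. Neighbouring days in that order overlapped. The horn difference averaged over days was 0.03 ± 0.25, with a 95% interval of -0.47 to 0.53. Within groups CYP1A1 had a standard deviation of 0.87 on the log2 scale, wider than that of 96.7% of 15234 genes with an average log2 CPM of at least 1. The coefficient of variation within a group ran from 28.8% to 74.6% for CYP1A1 and from 5.97% to 24.1% for AHR.

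CYP1A2, the neighbour of CYP1A1 with no annotated gene between them in the bovine RefSeq assembly ARS-UCD2.0, was nearly without reads. It had 2 reads in all, 1 in the ipsilateral library of tag 2-371 on day 7 and 1 in the ipsilateral library of tag 7-107 on day 16. The other 38 libraries had none, which allows a level of up to 0.0466 to 0.111 CPM, depending on the depth of the library (3 reads, counting error only). The 2 libraries with a read held 18.1 and 19.2 CPM of CYP1A1, the highest ipsilateral values of their days. Contralateral tags 2-068 and 7-107 of day 16 held more CYP1A1, 20.96 and 20.24 CPM, and had no CYP1A2 read.

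CYP1B1, the family member known for expression outside the liver and for hydroxylating estradiol, had means that went up from day to day in both horns and was higher in the ipsilateral horn in the average over days and on day 5. Its contralateral mean went from 42.03 ± 11.98 CPM (SD, n = 5) on day 5 through 57.69 ± 17.31 on day 7 and 93.56 ± 21.31 on day 13 to 104.6 ± 26.96 CPM on day 16. The ipsilateral means on the same days were 71.28 ± 28.18, 81.23 ± 23.48, 106.4 ± 21.7 and 117.4 ± 30.2 CPM. The order of days was thus the same in both horns. The step from day 7 to day 13 passed contralaterally, at 0.70 ± 0.25 (adjusted p = 0.03 by edgeR), and not ipsilaterally, at 0.39 (adjusted p = 0.251 by edgeR). Contralaterally 4 of 5 libraries of day 13 were above the highest of day 7. The call ended when any 1 of 5 libraries was left out, with adjusted p up to 0.0975 in edgeR.

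Between the horns, CYP1B1 differed by 0.40 ± 0.13 in the average over days (adjusted p = 0.00997 by edgeR). On day 5 the ipsilateral libraries held 36.9, 55.6, 63.7, 96.5 and 104 CPM and the contralateral ones 33.9, 36.9, 37.6, 38.5 and 63.2 CPM. Of the ipsilateral libraries, 3 were above the highest contralateral one, and that contralateral library, tag 7-300, stood far above the other 4. The difference was 0.76 ± 0.25 on day 5 (adjusted p = 0.0257 by edgeR) and 0.49 on day 7 (adjusted p = 0.227 by edgeR). On days 13 and 16 it was 0.19 and 0.17, with adjusted p of 0.806 and 0.856 in edgeR. A fall of the difference over the days was not shown (adjusted p = 1 for the interaction by edgeR). The day 5 call ended when any 1 of 6 libraries was left out, with adjusted p up to 0.113 in edgeR, in limma-voom (adjusted p = 0.0512) and in a fit of the day 5 libraries alone (adjusted p = 0.0759 by edgeR). With the microRNA and tRNA share as a covariate the averaged difference was 0.54 ± 0.24 (adjusted p = 0.158 by edgeR). That share was higher ipsilaterally and is poorly separated from the horn in such a fit, as given beside AHR.

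Over the 40 libraries the log2 level of CYP1B1 had r = 0.57 with the erythroid, 0.55 with the endothelial and -0.46 with the stromal marker sum. After removal of the group means these were -0.08, 0.46 and 0.46, with -0.49 for ciliated cell and -0.46 for epithelial markers. The erythroid sum rests on few reads, with group means of 0.70 to 1.83 CPM, and 2 of its 5 genes passed the filter on low counts. From day 7 to day 13, 2 of 8 endothelial markers rose ipsilaterally and 3 of 8 contralaterally, where 29.8% and 32.9% of all genes passed in either direction. The part of these cells in the CYP1B1 level was not tested.

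**Figure D3:**
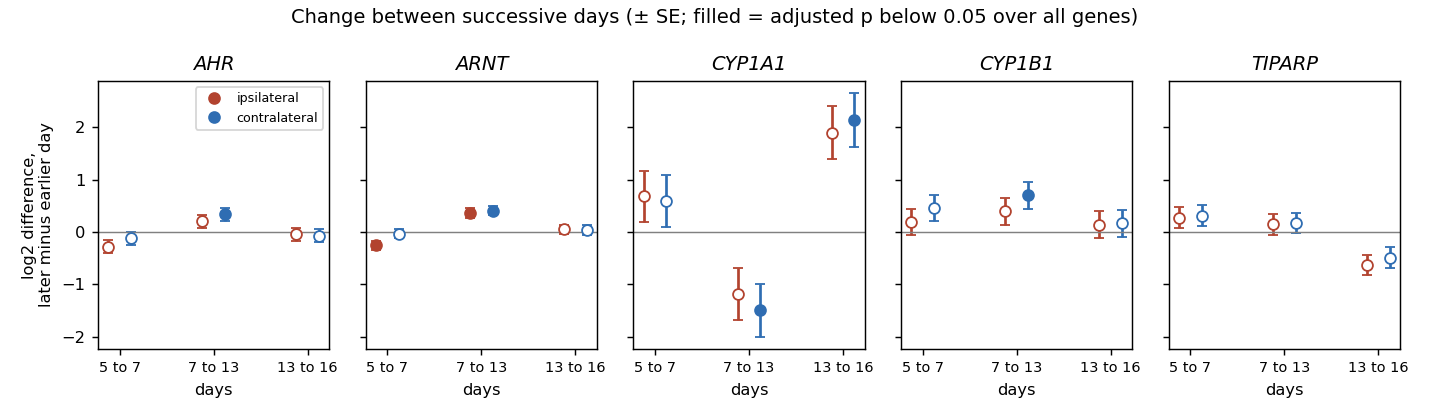
Log2 difference between successive days (later minus earlier) with SE in the ipsilateral (red) and contralateral (blue) horn for 5 genes; filled points passed an adjusted p below 0.05 over all genes. CYP1A1 lies below 0 from day 7 to 13 and near 2 from day 13 to 16, where TIPARP lies below 0 in both horns.

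TIPARP, an enzyme that attaches ADP-ribose to proteins and dampens AHR after it has been switched on, had its highest means on day 13 and its lowest on day 16 in both horns. On day 13 the ipsilateral libraries held 162, 171, 228, 238 and 264 CPM, and on day 16 they held 110, 127, 149, 150 and 151 CPM. The contralateral libraries held 165, 166, 192, 195 and 230 CPM on day 13 and 124, 127, 128, 135 and 160 CPM on day 16. All 5 libraries of day 16 were below all 5 of day 13 in each horn. The fitted differences were -0.63 ± 0.20 ipsilaterally (adjusted p = 0.123 by edgeR) and -0.49 ± 0.20 contralaterally (adjusted p = 0.249 by edgeR), and neither passed.

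A fit of the contralateral libraries of these days alone gave an adjusted p of 0.0457 in edgeR. On day 5 the means were 159.6 ± 47.9 and 135.9 ± 37.8 CPM (SD, n = 5) in the ipsilateral and contralateral horn. The lowest of the 40 libraries were of that day, at 72.8 CPM in contralateral tag 1-315 and 78.0 CPM in the deepest library, ipsilateral tag 3-175. The former is the best match of the latter in the comparison of tags (r = 0.678), which does not show that they share a heifer. The day 7 means were 192.6 ± 39.3 and 168.8 ± 31.9 CPM. The horn difference averaged over days was 0.15, with a 95% interval of -0.05 to 0.35 (adjusted p = 0.227 by edgeR).

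From day 13 to day 16, then, the levels of CYP1A1 and TIPARP, both known targets of AHR, lay apart between days in opposite directions. Leukocyte and ciliated cell markers had the most negative r with TIPARP over the 40 libraries, -0.44 and -0.45, and -0.40 and -0.46 after removal of the group means. The part of these cells in the TIPARP level was not tested. AHR and ARNT hardly differed over the same interval, with log2 differences of -0.04 and 0.05 ipsilaterally and -0.07 and 0.04 contralaterally.

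Between members, the correlations of log2 CPM over the 40 libraries were strongest for ARNT and CYP1B1 (r = 0.65, and 0.39 after removal of the group means). AHR and CYP1B1 had r = 0.48, and 0.28 within groups. AHR and CYP1A1 had r = -0.00, and 0.14 within groups. CYP1A1 and TIPARP had r = -0.40, and -0.19 within groups. CYP1B1 and TIPARP had r = 0.33, and 0.40 within groups. The libraries share day, horn and heifers, and no p is given.

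**Figure D4:**
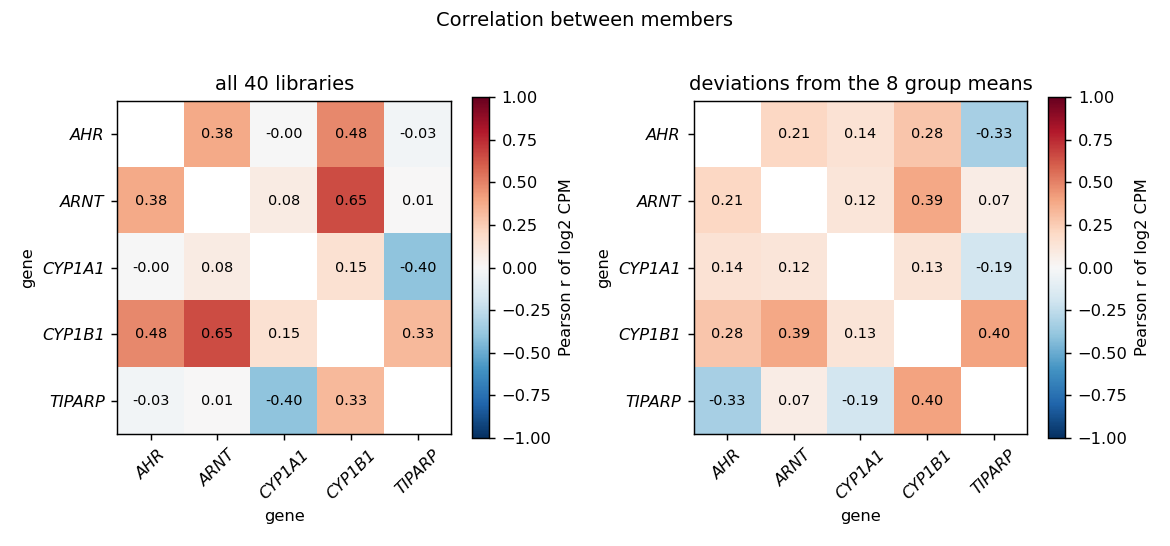
Pearson r of log2 CPM between 5 genes over 40 libraries (left) and after removal of the 8 group means (right), on a colour scale from -1 to 1. ARNT and CYP1B1 have the highest r on the left, 0.65, and CYP1A1 and TIPARP the lowest, -0.40.

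The genes whose pattern over the 40 libraries was most like that of each member were chosen among 15233 genes by Pearson r of log2 CPM. For AHR these were CHD1 (0.87), EEA1 (0.86), REEP3 (0.85), CALCRL (0.85) and FAM102B (0.85). For ARNT they were TSHZ1 (0.94), POGZ (0.92), POU6F1 (0.89), LOC104975974 (0.88) and SMARCA2 (0.88). CYP1B1 was followed most closely by LOC104976125 (0.87), NT5C2 (0.86), TMEM169 (0.85), RASAL2 (0.84) and PDGFRA (0.84). PDGFRA is one of the stromal markers, whose sum had r = -0.46 with CYP1B1 over the same libraries. TIPARP had TMEM86A (0.73), LOC101903536 (0.72), NDRG4 (0.72), EID3 (0.71) and RUNX2 (0.71). CYP1A1 had the weakest neighbours, TIMP4 (0.69), CDH12 (0.69), HSPA6 (0.68), NOTCH4 (0.64) and DNASE1L3 (0.63). Within groups the r of CYP1A1 and DNASE1L3 was 0.80.

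The shares of all genes given above for each comparison hold for the pathway lists too. The proteins that hold and assist AHR were divided between the horns. Of 9 tested chaperones and coactivators, 3 were higher and 3 lower ipsilaterally in the average over days (median -0.11, all genes -0.01). RB1, the retinoblastoma protein, which can bind AHR, was higher by 0.38 ± 0.05 (adjusted p = 2.85e-08 by edgeR). SRC, a kinase of the complex, was lower by 0.31 on the log2 scale and HSP90AB1 by 0.23. Between days 5 and 7 both HSP90 genes fell in both horns, HSP90AB1 by 0.65 ipsilaterally and by 0.43 contralaterally, and HSP90AA1 by 0.59 and by 0.52. For HSP90AB1, 1 ipsilateral library of day 5, tag 8-1350, held 2331 CPM and the next highest 1384 CPM. The coactivator NCOA2 rose by 0.53 ipsilaterally and 0.44 contralaterally between days 5 and 7.

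Of 7 tested relatives in the bHLH-PAS family of transcription factors, CLOCK, of the circadian clock, was higher ipsilaterally by 0.49 ± 0.04 (adjusted p = 4.58e-13 by edgeR). As a description, its horns did not overlap on any of the 4 days, with 82.22 ± 5.72 against 53.99 ± 4.57 CPM (SD, n = 5) on day 5. EPAS1 and NPAS2 were lower ipsilaterally, by 0.30 and by 0.17 as log2 values, so 1 of the 7 was higher and 2 were lower. With the microRNA and tRNA share as a covariate NPAS2 changed sign, to 0.12. ARNT2, the close relative of ARNT, fell between days 5 and 7 by 0.68 ipsilaterally and by 0.69 contralaterally. From day 7 to day 13, 3 of the 7 rose in each horn and none fell (medians 0.41 and 0.24, all genes 0.01 and 0.01): EPAS1 (1.00 ipsilaterally, 1.28 contralaterally), HIF1A (0.52 and 0.80) and ARNTL (0.48 and 0.38). EPAS1 and HIF1A answer to low oxygen and pair with ARNT, and ARNTL is the partner of CLOCK.

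Genes that HIF1A and EPAS1 are known to control went different ways. Of 10 tested, 1 rose and 2 fell from day 7 to day 13 ipsilaterally, and 1 rose and 3 fell contralaterally (medians 0.23 and 0.26). SLC2A1, a glucose transporter, rose by 1.03 and 1.30, and LDHA, lactate dehydrogenase A, fell by 2.07 and by 2.26. SLC2A1 rose again from day 13 to day 16, by 1.14 ipsilaterally and 0.94 contralaterally.

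Among 10 other reported targets of AHR, none passed as higher from day 13 to day 16 in either horn. In this interval 1.02% of all genes passed ipsilaterally and 1.33% contralaterally. The medians were 0.11 ipsilaterally and 0.02 contralaterally (all genes 0.00). Of the 10, 1 passed as lower, contralaterally: EREG, a growth factor, at -3.35 ± 0.87 (adjusted p = 0.0431 by edgeR). EREG levels were low, and the 2 groups overlapped. They ran from 0.41 to 5.42 CPM on day 13 and from 0.06, below the level of 3 reads, to 0.42 CPM on day 16. NQO1, a quinone reductase, differed by 0.03 ipsilaterally and 0.02 contralaterally in that interval, and NFE2L2 by 0.02 and 0.01. For NQO1, 1 library of each horn stood far above the others on day 16. Ipsilateral tag 3-155 held 64.39 CPM (next 23.9) and contralateral tag 5-137 held 78.57 CPM (next 27.7). The NQO1 medians were 28.32 and 31.29 CPM on day 13 and 21.48 and 26.04 CPM on day 16, ipsilaterally and contralaterally. UGT1A6, a glucuronosyltransferase, had the highest values of the list, 1.57 and 1.63, without passing (adjusted p = 0.293 and 0.252 by edgeR). SCIN, an actin-severing protein, fell from day 5 to day 7 by 1.17 ipsilaterally and by 1.20 contralaterally and rose from day 7 to day 13 by 0.94 and 1.04. CYP2S1 fell from day 5 to day 7 by 1.26 and by 1.66. GSTA2, a glutathione transferase, rose from day 7 to day 13 by 1.96 and 1.94. Averaged over days, NFE2L2 was higher ipsilaterally by 0.27, the only one of the 10 that passed.

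Some of the enzymes that make and break down tryptophan-derived ligands changed between days 5 and 7. Of 11 tested, 5 rose from day 5 to day 7 ipsilaterally and 4 contralaterally, and none fell (medians 0.46 and 0.49, all genes -0.01 and -0.00), where 30.7% and 19.8% of all genes passed. IDO1 is in both counts and rests on 1 library of each horn. In the average over days 1 was higher and 1 lower ipsilaterally. AFMID, which forms kynurenine, went from 14.50 ± 4.56 CPM (SD, n = 5) on day 5 to 57.31 ± 18.60 CPM on day 7 ipsilaterally, a rise of 1.98 ± 0.35 (adjusted p = 5.42e-05 by edgeR). It stood at 70.51 ± 36.99 CPM on day 13 and fell to 16.74 ± 9.69 CPM on day 16, by 2.08 on the log2 scale (adjusted p = 0.00135 by edgeR). Contralaterally it fell between these days by 2.06 ± 0.35. The groups of days 13 and 16 did not overlap in either horn.

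CCBL1, a kynurenine aminotransferase, rose by 1.58 and 1.29 from day 5 to day 7 and fell by 2.38 and by 2.34 from day 7 to day 13, ipsilaterally and contralaterally. QPRT, which takes the pathway towards NAD, rose by 1.25 and 1.41 from day 7 to day 13. For IDO1, the enzyme that opens the pathway, 1 library of each horn stood far above the others. On day 7 the ipsilateral library of tag 4-064 held 142.7 CPM and the next highest 6.31 CPM, and the contralateral library of tag 5-117 held 110.0 CPM and the next 5.67 CPM. That contralateral library was the best match of the ipsilateral one in the comparison of tags (r = 0.669), which is a description and does not show that they share a heifer. The fitted IDO1 difference from day 5 to day 7 was 2.99 ipsilaterally and 3.06 contralaterally with these libraries, and -0.28 and -0.02 without them. From day 7 to day 13 it was -2.91 and -3.04 with them and 0.36 and 0.04 without them.

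**Figure D5:**
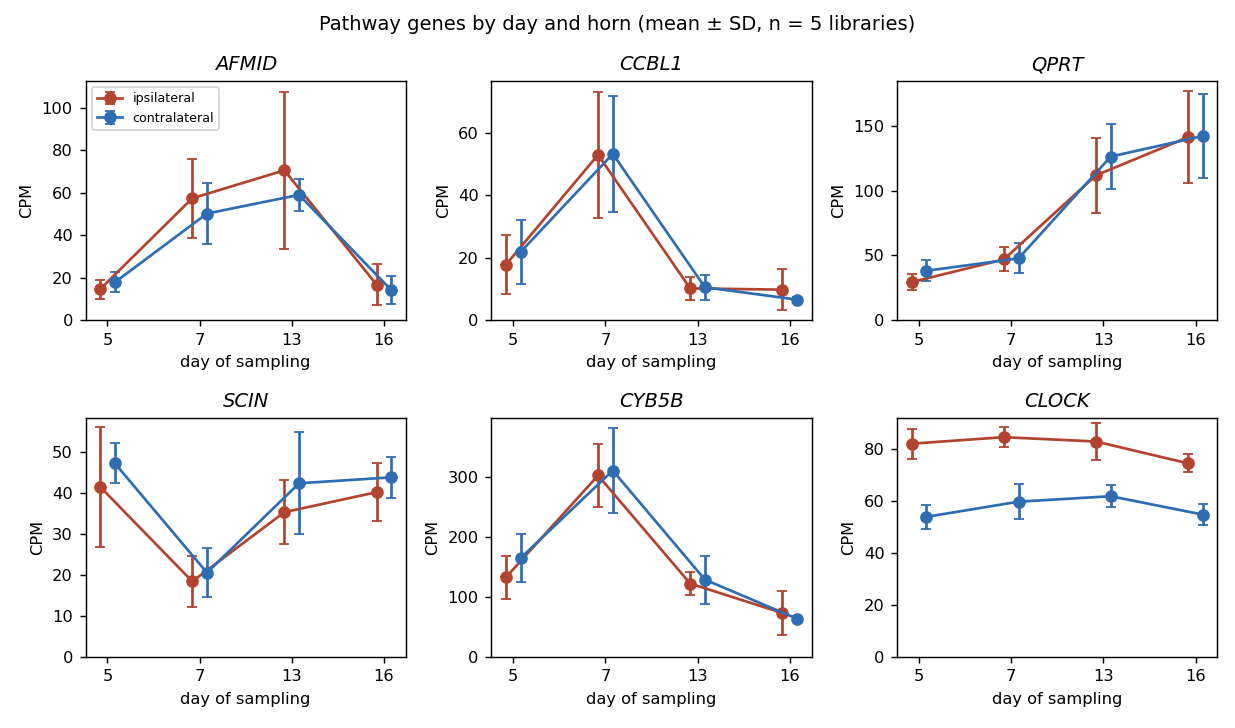
Mean CPM ± SD (n = 5 libraries) by day of sampling for AFMID, CCBL1, QPRT, SCIN, CYB5B and CLOCK in the ipsilateral (red) and contralateral (blue) horn. AFMID is high on days 7 and 13, CCBL1 and CYB5B on day 7, and CLOCK is higher in the ipsilateral horn on every day.

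CYP1 enzymes draw electrons from partner proteins. Of 4 such genes tested, POR, the cytochrome P450 reductase, was lower ipsilaterally by 0.29 ± 0.06 on the log2 scale (log2 difference -0.29, adjusted p = 0.000445 by edgeR), and CYB5R3 by 0.32. Of the epithelial and stromal markers, 7 of 10 and 5 of 8 were lower on that side too in the average over days, and their part was not tested. CYB5B, a mitochondrial cytochrome b5, rose from day 5 to day 7 by 1.19 and 0.92 and fell from day 7 to day 13 by 1.31 and by 1.27. It fell again from day 13 to day 16 contralaterally, by 1.02, and no other of the 4 passed in that interval.

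Genes that act on estrogens, substrates of CYP1B1, split between directions. Of 9 tested, 1 was higher and 2 were lower ipsilaterally in the average over days (median -0.05, all genes -0.01). GSTP1, a glutathione transferase, was lower by 0.22 on the log2 scale (adjusted p = 0.000564 by edgeR). HSD17B12 was higher by 0.37. From day 7 to day 13, 2 of the 9 fell ipsilaterally and 5 contralaterally, where HSD17B1 rose by 0.73.

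TIPARP belongs to the PARP family, of which 12 other members were tested (median 0.02 between horns in the average over days, 2 higher and 2 lower). PARP8 was higher ipsilaterally by 0.64 ± 0.11 (adjusted p = 9.85e-06 by edgeR) and PARP1, the main enzyme of DNA damage signalling, was lower by 0.28 on the log2 scale. PARP6 was higher by 0.13 and PARP11 lower by 0.11, and both changed sign with the microRNA and tRNA share as a covariate, at -0.04 and 0.01. From day 7 to day 13, PARP1 fell by 0.49 ipsilaterally and by 0.80 contralaterally. None of the 12 passed from day 13 to day 16, and neither did TIPARP. In that interval 1.02% of all genes passed ipsilaterally and 1.33% contralaterally.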

How the data were processed

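RNA from homogenised endometrium of both uterine horns was sequenced in stranded mRNA libraries, per the labels' protocols. The authors deposited a table of raw counts, reads per gene, made with HISAT2 and featureCounts on the bovine build UMD3.1 after FastQC, per the submitters' processing notes, with versions and the handling of shared reads not given in the sources used here. The counts were used as they stand. The mitochondrial genome row (0.08123% to 0.578% of the reads) entered neither library sizes nor tests.

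Tests were edgeR 4.0.16 quasi-likelihood tests (TMM, filterByExpr, R 4.3.3) on 8 group means of all 40 libraries, 12 comparisons, adjusted by Benjamini-Hochberg over 20356 genes. CPM use TMM-scaled totals, and correlations use log2 CPM with a prior count of 2. The 95% intervals use 32 residual degrees of freedom. Own-tag deviations correlated above 0.1 in 5 of 20 tags, which does not bear out the tags as pairs, so no tag term was used. No pairing was rebuilt from the data. The horns come from the same heifers, and the p-values treat them as separate. Alternatives were DESeq2 1.42.0, limma-voom (limma 3.58.1), RLE factors, no filter, covariates, a robust prior, the tag as a block or summed horns, only the groups compared, and each library left out.

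Named were all members, up to 4 passing genes of each pathway list and comparison whose average log2 CPM was 0 or more, and 5 pattern neighbours of each member. NQO1, NFE2L2 and UGT1A6 from day 13 to day 16 stand outside that rule and were chosen after their values were seen, as were the examples printed. Of 86 list entries, 81 were in the table. The members and lists were chosen with earlier results of these data known. A few list genes under that rule are left out of the text but count in their lists.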

Additional observations from a re-analysis of the deposited data

Results flagged for a closer look

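On day 5 the contralateral library of tag 7-300 held 63.23 CPM of CYP1B1, while the other 4 libraries of its group held 33.85 to 38.51 CPM. Its gap to the nearest library was 0.841 of the group's range, above the limit for 5 samples. Of 40 sets of 1 gene in 1 group, 1 stood out in this way. Chance gives about 1 in 20, so 1 of 40 is no more than chance gives.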

How the results depend on the processing

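Of 55 member results, 12 passed. Besides leaving out libraries, 440 alternatives of these were run: 419 stayed on their side of the threshold, 11 lost it, 10 gained it and 0 changed direction while called. The counts of members called moved as follows. With the microRNA and tRNA share as a covariate 1 member passed in the average over days, 1 on day 5 and 0 on day 7, and over all genes 2056, 2240, 231, 110 and 258 passed in the average and on days 5, 7, 13 and 16, against 7768, 4628, 2386, 1166 and 922. With only the groups compared 1 passed on day 5, 1 on day 16 and 2 from day 13 to 16 contralaterally. With limma-voom 1 passed on day 5, 2 from day 7 to 13 contralaterally and 0 from day 13 to 16 contralaterally. With library depth as a covariate 0 passed from day 5 to 7 ipsilaterally. With horns summed per tag 0 passed from day 5 to 7, 4 from day 7 to 13 and 2 from day 13 to 16, and with DESeq2 2 from day 7 to 13 and 1 from day 13 to 16 ipsilaterally. The cause was not tested, and the microRNA and tRNA share is poorly separated from the horn in the fit that holds both. Leaving out 1 library gave 1 to 3 members on day 5, 0 to 1 on day 7, 0 to 1 from day 5 to 7 and 1 to 2 from day 7 to 13 ipsilaterally, and 1 to 4 from day 7 to 13 and 0 to 1 from day 13 to 16 contralaterally. The average over days kept a count of 2. With the replicate block (the tag as a block) the counts of members were 2, 2, 1, 0 and 0 in the average and on days 5, 7, 13 and 16, and AHR differed by 0.42 ± 0.07 in the average (adjusted p = 5.32e-05 by edgeR). Own-tag correlations ran from -0.258 to 0.669, and 5 of 20 tags matched their own number best, so the block and the sums per tag may join different heifers.

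Named list genes that changed direction were, with the microRNA and tRNA share as a covariate in the average over days, NPAS2 (0.122), PARP6 (-0.0354), PARP11 (0.0110), SLC2A1 (0.0679) and NDRG1 (0.128). With single libraries left out, IDO1 ran from -0.282 to 3.298 from day 5 to 7 and from -3.217 to 0.364 from day 7 to 13 ipsilaterally, the far ends without tag 4-064 of day 7 being -0.282 and 0.364. Contralaterally it ran from -0.0181 to 3.491 and from -3.351 to 0.0361, with -0.0181 and 0.0361 without tag 5-117 of day 7. CYP1A1 had as few as 35 reads in a library, which limits its precision.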
